A study of Homo sapiens with 20 samples.

Results

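The RNA that 5 colorectal cancer cell lines (LoVo, LS1034, SNU-C1, WiDr and LS123) released in extracellular vesicles was compared with the RNA of the cells themselves. Extracellular vesicles are membrane-bound particles that cells shed into their medium. The lines are 5 of 10 in the series, and 10 of its 20 libraries belong to them, with 1 library per line and compartment. The 5 were chosen by a measured value, the background expected in the vesicle counts, predicted over all genes from the counts on genes silent in cells. As a share of all vesicle counts, LoVo was at 22.4%, LS1034 at 17.9%, SNU-C1 at 46.9%, WiDr at 28.0% and LS123 at 38.5%. The silent genes themselves held 1.56% to 4.09% of the counts. LS513 was the nearest line outside the choice, at 6.72%, and the lowest was SW480, at 1.92%. These shares describe the choice and were not tested. Genes were described where the mean of the 5 cell libraries was at least 10 CPM (counts scaled to the library total), which held for 9738 of 17113 genes. STEAP4 lay just inside that limit at 10.0 CPM, and MISP3 just outside it at 9.99 CPM.

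All lines are labelled as untreated adenocarcinoma of the large intestine, grown in RPMI-1640 or DMEM with fetal bovine serum. Cell libraries came from a stranded kit that removes ribosomal RNA. Vesicle RNA, isolated with an exosome kit, went through SMART-Seq amplification for small inputs and Nextera XT tagmentation, so kit and compartment cannot be told apart in any comparison below. Each line is 1 culture per compartment as far as the labels say, and the replicate is the line (n = 5).

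A vesicle takes up cytoplasm as it forms, and most messenger RNAs reach it from the cytosol. Messages for secreted and membrane proteins are held at the endoplasmic reticulum by their ribosomes, and messages encoded in mitochondria are made and translated inside that organelle. Some other messages, among them RAB13, NET1 and KIF1C, are carried to protrusions at the cell edge, and repeats of G and A in their 3' untranslated regions (UTRs) are known to take part in this.

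The 5 vesicle libraries held 1748238 to 4507779 counts and the 5 cell libraries 25808107 to 37418506, so a gene with 0 counts could still be present at up to 0.666 to 1.72 CPM in vesicles (3 counts per library, counting error only). Colon epithelial markers were present in the cells: EPCAM ran from 648 to 2636 CPM and KRT8 from 1594 to 6334 CPM, while KRT20 (2.48 CPM) and VIL1 (0.0764 CPM) were low in LS123 and CDX2 (0.504 CPM) was low in WiDr. Cell libraries of some lines resembled each other. Over genes centred across the 10 lines, WiDr and HT-29 correlated at r = 0.847 and LS123 and HCT 116 at r = 0.744, against 0.348 for the next pair. WiDr is known as a derivative of HT-29; for LS123 the likeness puts the label in doubt, and the line's identity was not tested. Since HT-29 and HCT 116 are among the other 5 lines, those are not a fully separate comparison. Counts of calls are also given without WiDr and without LS123. Each vesicle library matched the cells of its own line best among the 5, before and after the background was removed.

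The background was measured on 2077 genes with at most 10 counts in every one of the 10 cell libraries. In the 5 vesicle libraries such silent genes held 29.9 to 34.8 counts on average, against 0.810 to 1.93 in the cells of the same lines. The vesicle counts rose with transcript length, from a mean of 9.43 to 12.9 counts in the shortest 20% of silent genes to 60.2 to 70.0 in the longest 20%. For every gene the counts expected from length and base composition were predicted from these silent genes and subtracted, and the comparison was run on counts before and after that step. Each of 4 marker lists for other cells (fibroblast and endothelial, hepatocyte and serum, erythroid and platelet, leukocyte) took at most 0.107% of the counts of any vesicle library, and the background alone would give 36.3% to 60.4% of a list's counts. LYZ, in the leukocyte list, and SERPINA1, in the hepatocyte and serum list, passed the 10 CPM limit in the cells themselves. Those lists took up to 0.270% and 0.0764% of the counts of a cell library. Counts above the background can thus not be read as RNA of other cells. The part of the marker lists in the results was not tested.

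**Figure D1:**
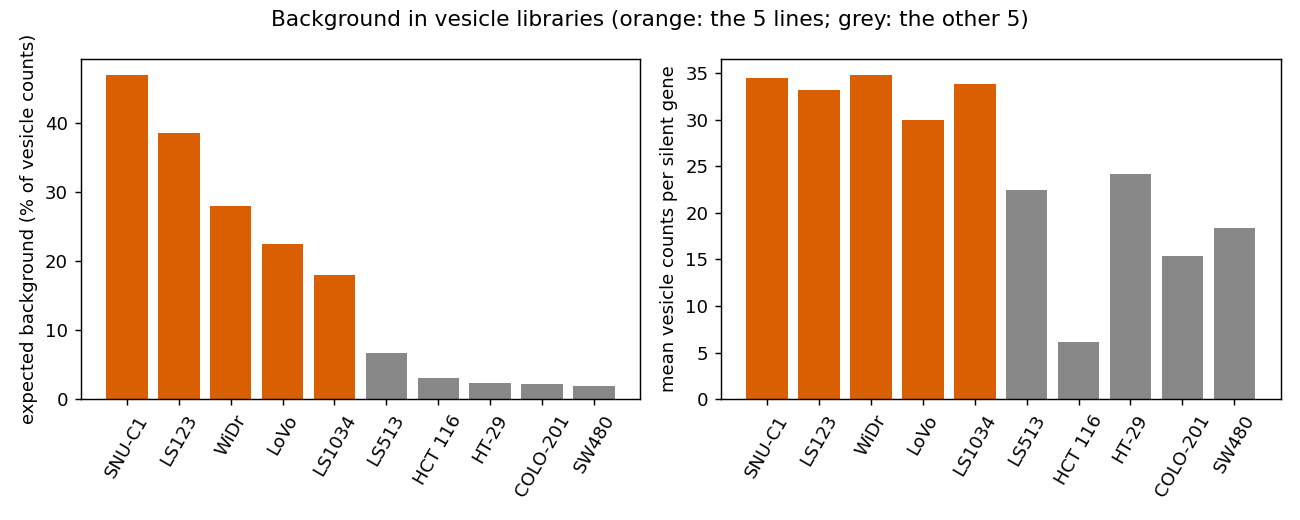
Left, expected background as a percent of vesicle counts for each of the 10 lines; right, mean vesicle counts per silent gene. Orange bars are the 5 lines described here, from 17.9% to 46.9% background, and grey bars the other 5, from 1.92% to 6.72%.

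Fewer genes were called once the background was removed, and the values were also less precise. As deposited, 322 of the 9733 genes that passed the CPM limit and were tested rose in vesicles (3.31%) and 4225 were lower (43.4%) by edgeR's quasi-likelihood test with Benjamini-Hochberg adjustment at 0.05. After subtraction 158 were higher (1.63%) and 1262 were lower (13.0%) of 9681 tested. A total of 101 genes were called higher both times (1.04%) and 1182 were called lower both times (12.1%); these are the differences referred to below as kept. No gene called before subtraction was called in the opposite direction after it. The median SE of genes with at least 10 CPM was 0.36 before and 0.53 after subtraction. The 221 rises lost had a median log2 fold change of 1.47 before and 1.23 after it, with a median SE of 0.40 and 0.74 (13 of them were not tested after it), and the 3043 falls lost had medians of -1.31 and -0.87, with a median SE of 0.32 and 0.42. A lost call is therefore not a difference shown to be absent. Over all 16617 genes tested as deposited, including those near silent in cells, 5657 were higher (34.0%) and 4231 lower (25.5%); after subtraction it was 1034 (7.89%) and 1272 (9.7%) of 13109.

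The counts depended on which line was present. Without LoVo 34 rises and 351 falls were kept, without LS1034 50 and 562, without WiDr 52 and 453, and without LS123 68 and 565. Without SNU-C1, the line with the most background, 99 and 1236 were kept. Scaling also moved the split, since the median log2 fold change of the genes with at least 10 CPM was -0.77 with TMM and 0.04 with library size alone as deposited, and -0.60 and -0.39 after subtraction. With library size alone 1222 genes were higher and 1670 lower as deposited, and 240 rises and 851 falls were kept.

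Medians and calls shifted with abundance and length. As deposited, the median log2 fold change fell from 0.48 in genes at 10 to 20 CPM in cells to -1.63 in genes over 500 CPM. After subtraction the same classes had medians of -0.22 and -0.66. These classes, like the 10 CPM limit, were set by the cell counts that also enter the fold change. A downward slope and a surplus of falls are therefore partly built in. Of genes at 10 to 20 CPM, 214 were higher before subtraction and 45 after it, and 20 and 41 were lower. After subtraction 2.63% of that class were lower, against 35.6% of genes over 500 CPM, and the gene lists below were not matched for abundance. Among the longest 20% of genes 175 were higher before subtraction and 55 after it, and in the shortest 20% 22 and 38. Falls went from 736 to 315 in the longest 20% and from 691 to 81 in the shortest.

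**Figure D2:**
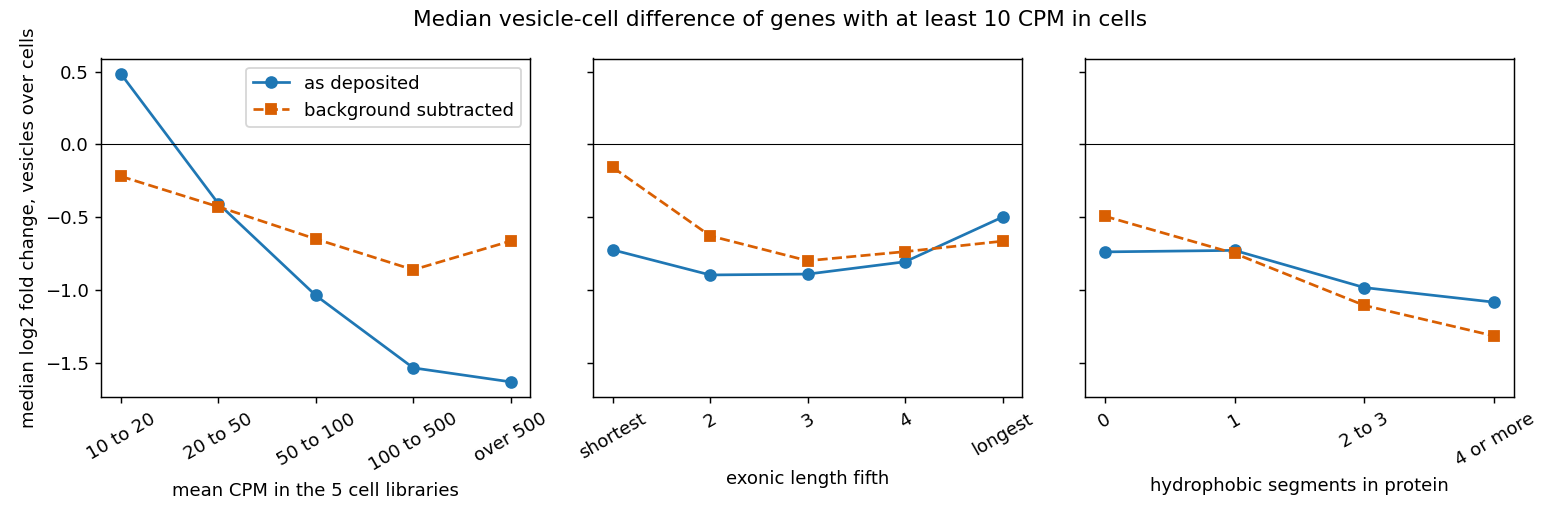
Median log2 fold change of vesicles over cells for genes with at least 10 CPM in cells, by mean cell CPM, by exonic length in 5 equal classes and by number of hydrophobic segments in the protein, as deposited (blue) and after subtraction (orange). The slope with cell CPM runs from 0.48 to -1.63 as deposited and from -0.22 to -0.66 after subtraction. The CPM classes and the fold change share the same cell counts.

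Among kept rises with at least 1 CPM in each cell library, the largest included RAB13, TRAK2, KIF1C, NET1 and CDC42BPG. That limit left out other large rises, NLRP2, TH and GABRP among them, at 6.96, 5.67 and 5.57 as deposited. The background could supply 56.8%, 21.3% and 37.9% of their vesicle counts. RAB13 is a small GTPase of epithelial junctions, TRAK2 and KIF1C take part in transport along microtubules, NET1 activates RhoA and CDC42BPG is a kinase that binds CDC42. The 30-base stretch of the 3' UTR with the most GA dinucleotides is shown for these 5 because GA repeats are the feature linked to protrusion transport. Capitals mark GA dinucleotides; sequences are from GENCODE release 29 transcripts on GRCh38, 5' to 3' on the transcript strand. RAB13 lies at chr1:153981905-153981934 (minus strand), TRAK2 at chr2:201379084-201379113 (minus), KIF1C at chr17:5024245-5024274 (plus), NET1 at chr10:5457953-5457982 (plus) and CDC42BPG at chr11:64823855-64823884 (minus).
RAB13: gGAaGAGAGAgGAaggGAGAaggGAGAgGA
TRAK2: GAcatGAtaGAGAaaaGAtGAGAGAgggGA
KIF1C: GAggcccagGAGAtGAGAGAGAaggtccGA
NET1: tGAgttaaaaGAaaaaGAGAgGAaaaGAGA
CDC42BPG: aGAgGAaGAgggGAGAggGAcGAagGAgGA

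These windows hold 10 GA in RAB13, 9 in TRAK2, 8 in KIF1C, 7 in NET1 and 9 in CDC42BPG, and the median best window over all genes with at least 10 CPM holds 6. Of the other named rises below, SAMD4A and SOGA1 hold 7 and LRP1 and DENND2B hold 4. RASSF3 and MYO15B had no 3' UTR window in the transcript used. At least 10 GA stood in the best window of 5 of 96 kept rises (5.21%) and of 67 of 9577 genes with at least 10 CPM (0.700%). That count depends on the transcript chosen for a gene: when transcripts with a consensus coding sequence were preferred, a choice tried after the data were seen, it was 7 of 97 (7.22%) and 72 of 9619 (0.749%). Of the 67 genes with such a window, 7 were higher and 22 lower as deposited (3.31% and 43.4% of all genes were), and 6 were higher and 11 lower after subtraction (1.63% and 13.0%). The contrast depends on the cut. At least 9 GA stood in the best window of 9 of 96 kept rises, 6 of 218 rises lost and 208 of 9577 genes. At least 8 GA stood there in 12.5%, 12.8% and 8.04%, so at that cut kept and lost rises were alike. The median best window held 6 in each of these groups. A match of letters is a description and not a site.

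RAB13 was at 42.9 CPM in LoVo cells and 8558 in LoVo vesicles, 12.5 and 2561 in LS1034, 19.1 and 555 in SNU-C1, 30.6 and 4317 in WiDr, and 53.2 and 1954 in LS123. The compartments did not overlap. Its log2 fold change was 5.74 (SE 0.74, adjusted p = 0.000705, edgeR) as deposited and 6.80 (SE 0.69, adjusted p = 0.00406) after subtraction.

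TRAK2 rose by 4.04 (SE 0.85) before and 5.06 (SE 0.82) after subtraction, on the log2 scale. It was at 24.4 to 85.6 CPM in cells and 251 to 3458 CPM in vesicles, lowest in SNU-C1 vesicles. KIF1C was at 63.7 to 165 CPM in cells and 1017 to 7485 CPM in vesicles, with a log2 fold change of 4.92 (SE 0.56) after subtraction. NET1 was at 88.7 to 323 CPM in cells and at 6345 in LoVo, 18310 in LS1034, 783 in SNU-C1, 7625 in WiDr and 1241 CPM in LS123 vesicles, with a log2 fold change of 4.45 (SE 0.75). For none of these 4 genes did the compartments overlap, and the expected background was at most 0.811% of their vesicle counts. The 4 were picked as large rises with that direction in 5 of 5 lines, so the lack of overlap is no separate support. As deposited, 406 of the 9733 genes tested were higher in 5 of 5 lines.

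CDC42BPG was at 4.92 to 18.8 CPM in cells and 142 to 334 CPM in vesicles, with a log2 fold change of 4.16 (SE 0.45) after subtraction. RASSF3, a Ras-association domain protein, was at 16.8 to 50.7 CPM in cells and 102 to 678 CPM in vesicles, with a log2 fold change of 4.11 (SE 0.43). SAMD4A, an RNA-binding repressor of translation, was at 4.93 to 12.7 CPM in cells and 66.9 to 293 CPM in vesicles, with a log2 fold change of 3.29 (SE 0.63), and it was no longer called when 2 times the background was subtracted. In the other 5 lines, after subtraction, RAB13 stood at 6.44, TRAK2 at 4.72, KIF1C at 4.22, NET1 at 4.05, CDC42BPG at 3.52, RASSF3 at 3.08 and SAMD4A at 3.63 on the log2 scale, all past the threshold.

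Among the 12 largest kept rises with at least 1 CPM in each cell library, LRP1, MYO15B, DENND2B and SOGA1 rested on counts of which the background could supply 37.9% to 58.8%. Their exons span 12761 to 20839 bases, against a median of 5325 for all genes with at least 10 CPM. LRP1, an endocytic receptor, had a log2 fold change of 3.62 (SE 0.81) after subtraction, MYO15B 3.47 (SE 0.80), DENND2B 2.45 (SE 0.69) and SOGA1 2.88 (SE 0.74). In the other 5 lines none was called after subtraction, with values of 1.12, 0.88, -1.40 and -0.72. With 2 times the background subtracted none of the 4 was called, and DENND2B stood at -4.82. The calls of all 4 were also lost on leaving out single lines: LRP1 without LoVo or LS123, MYO15B without LoVo, WiDr or LS123, SOGA1 without LoVo, LS1034 or WiDr, and DENND2B without any line other than SNU-C1.

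**Figure D3:**
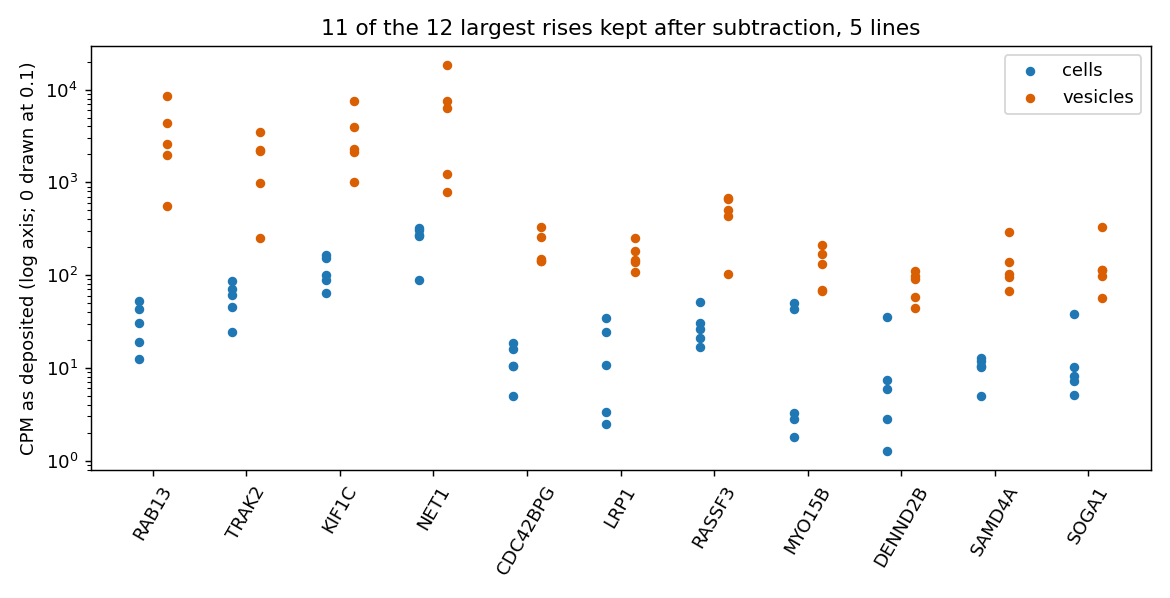
CPM as deposited of 11 of the 12 largest kept rises in the 5 cell libraries (blue) and the 5 vesicle libraries (orange), log axis, each point 1 library. Only rises with at least 1 CPM in each cell library were ranked. RAB13 is at 12.5 to 53.2 CPM in cells and 555 to 8558 CPM in vesicles; MYO15B shows a narrower gap, with cells at 1.82 to 50.5 and vesicles at 67.8 to 213 CPM.

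Over the 101 kept rises, 42 lay above the 95th percentile of observed over expected counts of the silent genes in 5 of 5 vesicle libraries, a check added after the data were seen, and 25 were still called with 2 times the background subtracted. Of 100 tested in the other 5 lines, 43 were called higher there after subtraction, where 14.5% of all genes with at least 10 CPM were (9.13% as deposited). Among the 42 were ANP32B, UACA, YBX1 and GUK1, named after their values were seen, with log2 fold changes after subtraction of 3.71, 2.66, 2.10 and 2.09. The list of messages known to reach protrusions had 6 of 17 members kept higher (RAB13, NET1, KIF1C, TRAK2, HMGN5 and RASSF3) and 1 kept lower, the integrin ITGB1, where 1.04% of all genes were kept higher and 12.1% kept lower. The list median was 0.42 after subtraction, against -0.60 over all genes. As deposited that median was -0.35 with TMM and up to 0.49 under other scalings. The list was chosen with these results known and is not independent evidence. Its share of counts was 0.191% to 0.241% in cells and 0.455% to 3.10% in vesicles, higher in 5 of 5 lines (exact sign-flip permutation test, two-sided p = 0.0625, the smallest that 5 pairs can give; 0.104 adjusted over 5 classes).

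Rises that did not survive had a median exonic length of 9384 bases and a median of 14.9 CPM in cells, and the kept rises, at 8580 bases and 21.9 CPM, were also longer and lower than all genes (5325 bases, 52.8 CPM). PAX6 and FRAS1, with 20812 and 18960 exonic bases, had log2 fold changes of 2.45 (SE 0.57) and 2.27 (SE 0.55) as deposited, and after subtraction of -4.23 (SE 1.74, adjusted p = 0.123, edgeR) and 0.97 (SE 0.95, adjusted p = 0.505). PAX6, a transcription factor of eye and endocrine cells, had 2.05 to 42.2 CPM in cells and 36.1 to 67.2 CPM in vesicles, of which 84.9% was expected from the background. Over the 221 rises lost, the median expected share was 53.9% of vesicle counts, against 26.8% over the kept rises. SH3TC1, MYLK and WNK2, also among the 6 largest, had values of 2.37, 2.18 and 2.17 before and 1.17, 2.02 and 1.88 after subtraction.

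A further 57 genes were called higher only after subtraction. The 6 largest were PPDPF, RPS2, FTL, RBM25, C9orf16 and C12orf75, with log2 fold changes after subtraction of 1.66 to 2.16. FTL, the light chain of the iron store ferritin, was at 703 to 4465 CPM in cells and 2551 to 22141 CPM in vesicles, with a log2 fold change of 0.74 (SE 0.51) before and 1.83 (SE 0.42) after subtraction. RPS2, a protein of the small ribosomal subunit, was at 780 to 1792 CPM in cells and 1306 to 6133 CPM in vesicles, with a log2 fold change of 0.76 (SE 0.43) before and 1.84 (SE 0.37) after subtraction. Both were called as deposited with library size alone, at 1.54 and 1.56. After subtraction RPS2 was not called without WiDr, nor FTL without LoVo, WiDr or LS123.

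Among the kept falls, messages of the secretory pathway and the plasma membrane were frequent. Of 34 endoplasmic reticulum chaperone and translocon genes, 21 were kept lower and 0 higher, where 12.1% of all genes were kept lower and 1.04% higher. The list median was -1.85 after subtraction, against -0.60 over all genes. SEC61A1, the channel through which new proteins enter the endoplasmic reticulum, was at 444 to 857 CPM in cells and 41.0 to 127 CPM in vesicles, with a log2 fold change of -3.35 (SE 0.30) after subtraction. HSPA5, the main chaperone there, was at 715 to 1583 CPM in cells and 59.5 to 480 CPM in vesicles, with a value of -2.90 (SE 0.46). Summed over the list, cell libraries had 1.48% ± 0.260 (SD, n = 5) of their counts and vesicle libraries 0.430% ± 0.174 (SD, n = 5). Every line had the lower share in vesicles (exact sign-flip p = 0.0625).

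Against the same 12.1%, of 29 genes of Golgi and coat proteins 15 were kept lower, with a median of -1.58; TGOLN2 and the cargo receptor TMED10 stood at -3.81 and -2.70. Of 20 amino acid, glucose and ion transporters 11 were kept lower, with a median of -2.23. SLC39A7 is among the 11, with 45 vesicle counts over the 5 lines where 165 were expected from the background. Of 25 adhesion molecules and growth factor receptors 16 were kept lower, with a median of -2.25. EPCAM, the epithelial adhesion molecule, was at 648 to 2636 CPM in cells and 98.4 to 436 CPM in vesicles, with a log2 fold change of -2.35 (SE 0.53) after subtraction. The receptor MET stood at -3.31 (SE 0.33). In none of these 4 lists was a member kept higher, and the medians stayed below that of all genes under all 5 scalings tried.

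Medians were also taken by the proteins encoded. After subtraction the median log2 fold change was -0.49 for genes whose protein had no hydrophobic segment (a stretch of 19 residues with a mean Kyte-Doolittle score over 1.6), -0.75 with 1, -1.10 with 2 or 3 and -1.31 with 4 or more. As deposited the values were -0.74, -0.73, -0.98 and -1.08. Genes with a hydrophobic segment took 28.1% to 32.7% of counts in cells and 20.1% to 26.4% in vesicles after subtraction, lower in 5 of 5 lines (exact sign-flip p = 0.0625). As deposited, vesicles were higher in 2 of 5 lines.

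All 13 mitochondrially encoded messages were lower as deposited and 12 were kept lower, with a list median of -2.69 after subtraction; MT-CO1 was at -1.48 (adjusted p = 0.0994, edgeR). MT-CO2, a subunit of cytochrome oxidase, was at 813 to 2314 CPM in cells and 30.7 to 287 CPM in vesicles, with a log2 fold change of -2.94 (SE 0.55). Mitochondrial messages took 0.436% to 1.49% of counts in cells and 0.0278% to 0.219% in vesicles, lower in 5 of 5 lines (exact sign-flip p = 0.0625). WiDr vesicles had the lowest share.

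**Figure D4:**
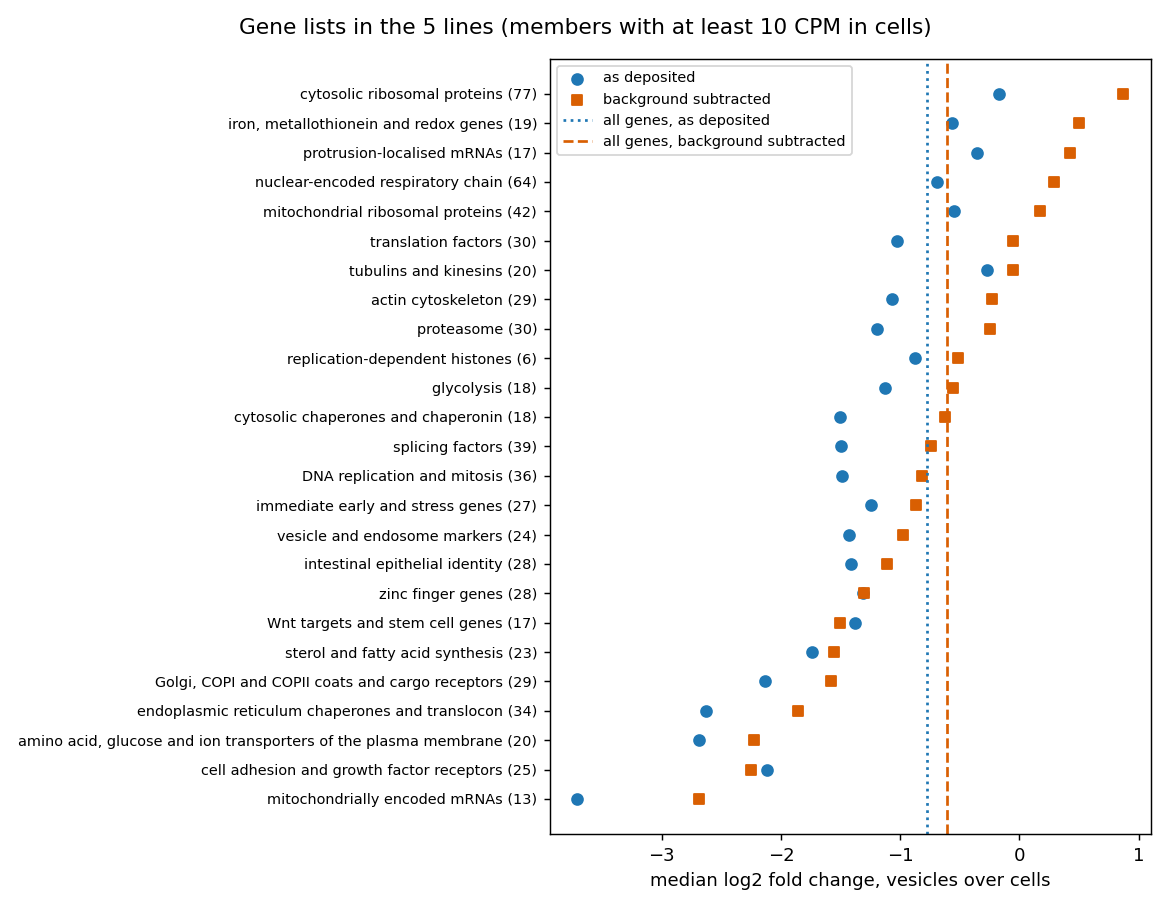
Median log2 fold change of vesicles over cells for each gene list with at least 6 members at 10 CPM or more, with the number of such members, as deposited (blue circles) and after subtraction (orange squares). Lines mark the median of all genes, at -0.77 and -0.60; mitochondrially encoded messages lie lowest at -3.71 and -2.69, and cytosolic ribosomal proteins highest after subtraction at 0.87.

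The largest kept falls with at least 1 CPM in each cell library fall in 2 sets. SLC38A2, SLC7A5, SCD and MT-ND3 had counts left after subtraction in 5 of 5 vesicle libraries, and TMEM30A in 4 of 5. SLC7A5, an amino acid transporter, was at 733 CPM in LoVo cells and 71.8 in LoVo vesicles, 440 and 61.9 in LS1034, 504 and 56.1 in SNU-C1, 878 and 77.8 in WiDr, and 995 and 63.5 in LS123. The compartments did not overlap, and the log2 fold change was -3.72 (SE 0.36, adjusted p = 0.00362, edgeR) after subtraction. SLC7A5 was picked as a large fall in 5 of 5 lines, so the lack of overlap is no separate support. As deposited, 4478 of the 9733 genes tested were lower in 5 of 5 lines. SLC38A2, another amino acid transporter, stood at -3.68 (SE 0.57), SCD, which desaturates fatty acids, at -3.77 (SE 0.47), and TMEM30A, a partner of lipid flippases, at -4.28 (SE 0.74), a fitted value that includes 0 counts left in SNU-C1. As deposited TMEM30A stood at -4.35 (SE 0.42). MT-ND3 stood at -3.66 (SE 0.74) and was not called without LoVo.

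ATF6B, SLC39A7, VARS2, TAP1, TAPBP and SKIV2L had 0 counts left in 5 of 5 vesicle libraries after subtraction, so no fold is given on that scale. All 6 lie on chromosome 6. Their vesicle counts were below the expected background itself: over the 5 lines ATF6B had 11 where 212 were expected, SLC39A7 45 where 165 were, VARS2 47 where 448 were, TAP1 61 where 267 were, TAPBP 48 where 286 were and SKIV2L 34 where 307 were. As deposited their log2 fold changes ran from -5.06 (SE 1.02) for ATF6B to -4.12 (SE 0.68) for SKIV2L. For TAP1 the cell libraries averaged 37.8 ± 51.8 CPM (SD, n = 5) and the vesicle libraries 3.56 ± 4.17 CPM (SD, n = 5). The calls after subtraction were lost on leaving out LoVo for all 6. What lowers these counts was not tested.

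**Figure D5:**
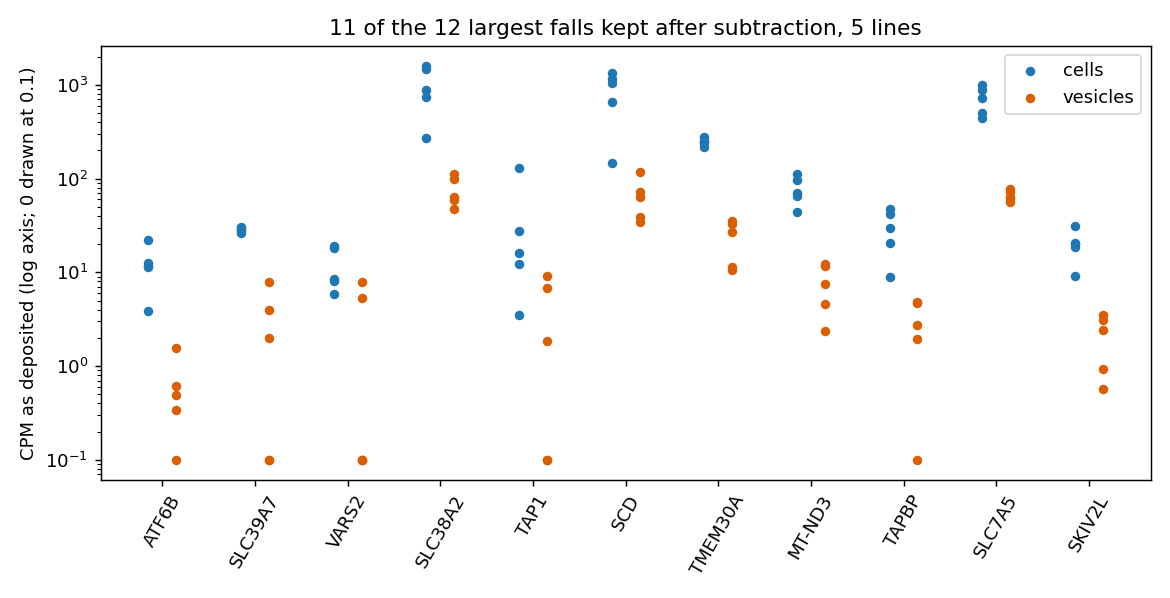
CPM as deposited of 11 of the 12 largest kept falls in the 5 cell libraries (blue) and the 5 vesicle libraries (orange), log axis with 0 drawn at 0.1. Only falls with at least 1 CPM in each cell library were ranked. SLC7A5 runs from 440 to 995 CPM in cells and 56.1 to 77.8 in vesicles, while ATF6B, SLC39A7, VARS2, TAP1, TAPBP and SKIV2L lie below 10 CPM in every vesicle library.

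Other cytosolic groups held few falls after subtraction, where 43.4% of all genes were lower as deposited and 13.0% after it. Of 18 cytosolic chaperone and chaperonin genes 17 were lower as deposited and 0 after subtraction, and of 18 glycolysis genes 11 and 0. Their medians went from -1.51 to -0.63 and from -1.13 to -0.55. Of 30 proteasome genes 19 were lower as deposited and 1 (PSMD1) was kept. Of 77 cytosolic ribosomal protein genes none was called as deposited; after subtraction 6 were higher, with a list median of 0.87, and the median as deposited was -0.17 with TMM and up to 0.67 under other scalings. Their share of counts after subtraction was 3.63% to 6.60% in cells and 4.36% to 15.9% in vesicles, higher in 5 of 5 lines (exact sign-flip p = 0.0625), and as deposited it was higher in 4 of 5 lines, lower in SNU-C1. Ribosomal protein genes have many processed copies, and reads of these cannot be told apart here.

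Other lists held kept falls and no kept rise, and are read against the 12.1% of all genes kept lower. Splicing factors had 12 of 39, DNA replication and mitosis 9 of 36, sterol and fatty acid synthesis 9 of 23, vesicle and endosome markers 6 of 24, intestinal identity 6 of 28, Wnt targets and stem cell genes 5 of 17, actin cytoskeleton 5 of 29, zinc finger genes 5 of 28, immediate early and stress genes 4 of 27, and iron and redox genes 3 of 19. The shares of actin (17.2%), zinc finger (17.9%), iron and redox (15.8%) and immediate early genes (14.8%) lay near that of all genes. Those of sterol synthesis (39.1%) and splicing (30.8%) lay above it, but the splicing median after subtraction was -0.74, near the -0.60 of all genes. Calls rose with abundance: after subtraction 31.0% of genes at 100 to 500 CPM and 35.6% over 500 CPM were lower, against 2.63% at 10 to 20 CPM. No list was matched for abundance, and the part of abundance in these shares was not tested. Nuclear-encoded respiratory chain genes had 2 of 64, translation factors 2 of 30, and mitochondrial ribosomal proteins (42), tubulins and kinesins (20) and replication-dependent histones (6) had 0. SREBF1 stood at -4.88 (SE 0.98), PRPF8 at -3.14 (SE 0.39), MYC at -2.02 (SE 0.30) and KIF11 at -1.24 (SE 0.30) after subtraction.

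None of the 3 tetraspanins used as protein markers of vesicles was called higher as a message. CD9 had a log2 fold change of -2.90 (SE 0.72, adjusted p = 0.00813) as deposited and -2.05 (SE 0.71, adjusted p = 0.0791) after subtraction, CD63 -1.44 (SE 0.43) and -0.45 (SE 0.40, adjusted p = 0.450), and CD81 -1.54 (SE 0.28) and -1.14 (SE 0.34, adjusted p = 0.0481), all by edgeR. Only CD81 was kept, and its call was lost with each of the other 4 scalings and on leaving out any line but SNU-C1. Both lysosomal membrane proteins LAMP1 and LAMP2 were kept lower, LAMP2 at -3.07 (SE 0.54).

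Whether the vesicle-cell difference itself differed from that in the other 5 lines was tested with an interaction term over the 20 libraries. As deposited, 147 genes were more positive in the 5 lines (1.51%) and 927 more negative (9.53%) of 9726. With library size alone these counts were 325 and 22, so the direction of that split rests on the scaling. After subtraction 0 genes were more positive and 2, HDAC8 and MED13L, more negative (0.0207%) of 9674, while 1906 had an unadjusted p under 0.05. Both had 0 counts left in 5 of 5 vesicle libraries of the 5 lines. Neither was called with library size alone or with transcripts preferred by consensus coding sequence. With only principal transcripts preferred, 2 genes were still called. Of the 1182 kept falls 864 (73.1%) were also called lower in the other 5 lines, where 23.0% of all genes with at least 10 CPM were (28.7% as deposited), and 1 was called higher.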

How the data were processed

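RNA of cells and of extracellular vesicles was sequenced from 10 lines; the 10 libraries of the 5 lines with most background were compared in pairs. The authors deposited raw counts of reads per protein-coding gene; STAR, featureCounts and hg19 are named per the submitters' processing notes, and versions, annotation and strand setting are not given in the sources used here. Overlapping and antisense genes can therefore share reads. The members, lists and tests were chosen with earlier results of these data known.

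Exonic length, GC content, 3' UTRs and proteins came from GENCODE 29, matched by symbol for 17101 of 17113 genes. For each library a Poisson regression on length, GC and GC squared (the planned form was linear in GC), fitted on genes with at most 10 counts in each cell library, gave the expected background, which was subtracted, rounded and held at 0 or above. Counts were tested with edgeR 4.0.16 (quasi-likelihood, robust, TMM, filterByExpr) in R 4.3.3 with cell line as a block, since libraries of a number come from 1 line (correlation of deviations 0.289 to 0.548). Subtracted counts are not raw counts, so these p-values leave out the error of the background. An SE is the absolute log2 fold change over the square root of F. The alternatives were DESeq2 1.42.0, other scalings, filters and backgrounds, and leaving out lines. On simulated counts for this comparison (11847 genes) the test recovered 39.8% of genes changed by 2 and 4.0% of those changed by 1 on the log2 scale. Both compartments were simulated from the cell counts with the same dispersion for every gene, without background or subtraction. These rates therefore do not describe the calls after subtraction.

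Named genes are the 12 largest kept rises and falls with 5 of 5 lines in that direction and at least 1 CPM in each cell library, the 6 largest rises lost, the 6 largest gained, CD9, CD63 and CD81, and the 2 members of each list with the smallest adjusted p; the text prints those it discusses, and a few are not reported here. The rule for a gene's transcript, which sets its GC content, UTR and protein, was changed 2 times after results were seen, both times because named rises lacked a UTR window. The first change, preferring complete transcripts, was kept; the second, preferring consensus coding sequences, also raised the share of kept rises with a GA window and was taken back. The original rule and the second change are alternatives.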

Additional observations from a re-analysis of the deposited data

Results flagged for a closer look

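Of the results tested for a stray line among 5, TMEM30A stood out after subtraction at -11.1 on the log2 scale in SNU-C1, where 0 counts were left, against -4.5 to -3.31 in the other lines; PAX6 did so at 0.469 in LS1034, the line with the most PAX6 in cells, against -5.33 to -4.16. The share of cytosolic ribosomal proteins in LoVo cells was 6.59% as deposited and 6.60% after subtraction, against 3.63% to 3.93% in the other cells. The share of endoplasmic reticulum chaperones in WiDr vesicles after subtraction was 0.896%, against 0.329% to 0.483%. Chance gives such a stray value in about 1 in 20 groups. HDAC8 and MED13L differed between the 5 lines and the other 5 by the interaction test after subtraction, with fitted log2 values of -12.0 and -11.7 that are no bounds, since no counts were left in the 5 lines.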

How the results depend on the processing

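As deposited, genes with at least 10 CPM called higher were 518 under size factors from DESeq2, 1222 when scaled by library size alone, 1361 with upper-quartile scaling, 1296 with TMM over those genes, 915 with the DESeq2 Wald test and 171 without the replicate block; called lower, 1670, 1548 and 1650 with library size, upper quartile and TMM over those genes. Over all genes the latter were 1671, 1549 and 1651. After subtraction, 268, 300, 435, 346, 730 and 99 were higher in the order given first, 587, 732, 2184 and 769 were lower with upper quartile, TMM over those genes, Wald and no replicate block, and 283 and 1963 with 2 times the background; a silent limit of 3 counts gave 2050 lower. Kept rises were 240, 318, 277, 407 and 64 (library size, upper quartile, TMM over those genes, Wald, no replicate block), 25 with 2 times the background, 173 with the silent limit of 3 counts and 42 above the silent genes' 95th percentile. Kept falls were 512, 644, 1794 and 730 (upper quartile, TMM over those genes, Wald, no replicate block), 1982 with that limit and 312 above the percentile. The interaction gave 325 and 22 with library size alone as deposited; the 2 genes after subtraction became 0 with library size alone and 0 with transcripts preferred by consensus coding sequence, and stayed 2 when only principal transcripts were preferred.

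Leaving out 1 line gave 198 to 308 higher as deposited, 51 to 258 higher and 360 to 1305 lower after subtraction, and 34 to 99 kept rises and 351 to 1236 kept falls. Both other transcript choices kept 100 or 101 of the 101 rises and 1177 or 1182 of the 1182 falls. For named genes 1371 of the values after subtraction kept direction and call, 122 lost the call, 36 gained it and 1 reversed, DENND2B at -4.82 with 2 times the background. No share of counts changed direction under the other denominator or without a line. Depth limits the low genes: 3 counts are up to 1.72 CPM in SNU-C1 vesicles.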
